A study of Homo sapiens and Mus musculus with 29 samples.

Results

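Primary pancreatic tumors labeled HNF4G-KO + FOXA1-OE were compared with primary tumors labeled FOXA1-OE, so that both groups were to overexpress FOXA1 and differed by the targeting of HNF4G. The comparison used 8 of the 29 samples of the series, all labeled as pancreas tumors of these treatments, and metastases were left out. All tumors were orthotopic xenografts of HPAF-II, an established human line of pancreatic ductal adenocarcinoma (PDAC) of the classical subtype, grown in the pancreas of young adult NSG mice, which lack functional lymphocytes. The 3 FOXA1-OE tumors (labeled Cas-9 + FOXA1) came from 3 mice and carried Cas9 without an HNF4G guide together with FOXA1. The 5 HNF4G-KO + FOXA1-OE tumors came from 4 mice, since tumors 2 and 3 shared an animal and were averaged. The HNF4G-KO cells were a pool of CRISPR clones with frameshift mutations, so that properties of these clones and the loss of HNF4G cannot be told apart. For reference, 4 HNF4G-KO tumors and 3 control (Cas-9) tumors without FOXA1-OE, each from a separate mouse, were described with the same values. Both reference groups were labeled EV, for empty vector, in place of FOXA1. The question was which genes differ with the targeting of HNF4G when FOXA1 is overexpressed.

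HNF4G and its paralog HNF4A are nuclear receptors that bind DNA as dimers and activate genes of the liver, gut and pancreas epithelium. FOXA1 is a forkhead transcription factor that can bind closed chromatin and is known from endoderm development and from hormone-dependent cancers. Classical PDAC keeps an epithelial program with gut-like secretory genes, whereas basal-like PDAC expresses squamous keratins and related genes.

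Values were RPKM, that is, reads scaled to the length of the gene and to the total of the library, and all fold changes are differences of mean log2(RPKM + 1), a scale that understates changes of genes with low levels. The depth, worked out from the smallest steps between RPKM values, was 39.5 to 51.2 M reads in FOXA1-OE libraries and 35.3 to 63.6 M reads in HNF4G-KO + FOXA1-OE libraries. Counted in steps of 2 reads, these depths were 17.7 to 31.8 M steps over both groups. A set of 3 libraries stood apart before any comparison. Mitochondrial tRNA took 24.6% of the summed RPKM in FOXA1-OE tumor 3, 30.2% in HNF4G-KO + FOXA1-OE tumor 4 and 18.7% in tumor 5, against 2.89% to 10.6% in all other tumors of the 4 groups. Since these 3 libraries lie in both groups, results were also computed without them. The epithelial genes EPCAM and CDH1 were expressed in every tumor, at 195 to 541 and 38.3 to 105 RPKM. The RNA came from whole tumors, in which fewer cells of a type and less RNA per cell cannot be told apart.

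The targeted gene was examined first. HNF4G (chromosome 8, 75407914 to 75566834 in GRCh38) was at 3.04, 2.26 and 0.495 RPKM in FOXA1-OE tumors 1 to 3. In HNF4G-KO + FOXA1-OE tumors 1 to 5 it was at 7.09, 6.16, 6.67, 3.94 and 1.69 RPKM. The mRNA was thus not lower in the tumors labeled HNF4G-KO, and the groups overlapped through tumor 5, without which the difference passed (adjusted p = 0.022). The log2 fold change was 0.98 (standard error, SE, 0.37, limma adjusted p = 0.122). Without the 3 libraries rich in mitochondrial tRNA it was 1.09 and passed the test (adjusted p = 0.0041). Frameshift mutations can leave the mRNA in place, so that the transcript checks neither the mutation nor the protein, and directions given here follow the labels.

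FOXA1 (chromosome 14, 37589552 to 37596059) was at 6.32, 8.18 and 0.763 RPKM in tumors labeled FOXA1-OE. It was at 12, 5.76, 23.1, 6.5 and 4.65 RPKM in the HNF4G-KO + FOXA1-OE tumors. FOXA1-OE tumor 3 therefore went against its label, at a level near that of the control tumors, whose mean was 0.710 RPKM. The difference between the groups did not pass the test (log2 fold change 0.90, SE 0.45, adjusted p = 0.245). Without FOXA1-OE tumor 3 it was 0.16 (adjusted p = 0.789), and without the 3 libraries rich in mitochondrial tRNA it was 0.65 (adjusted p = 0.0303), so FOXA1 itself was not equal between the groups in every setting.

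**Figure D1:**
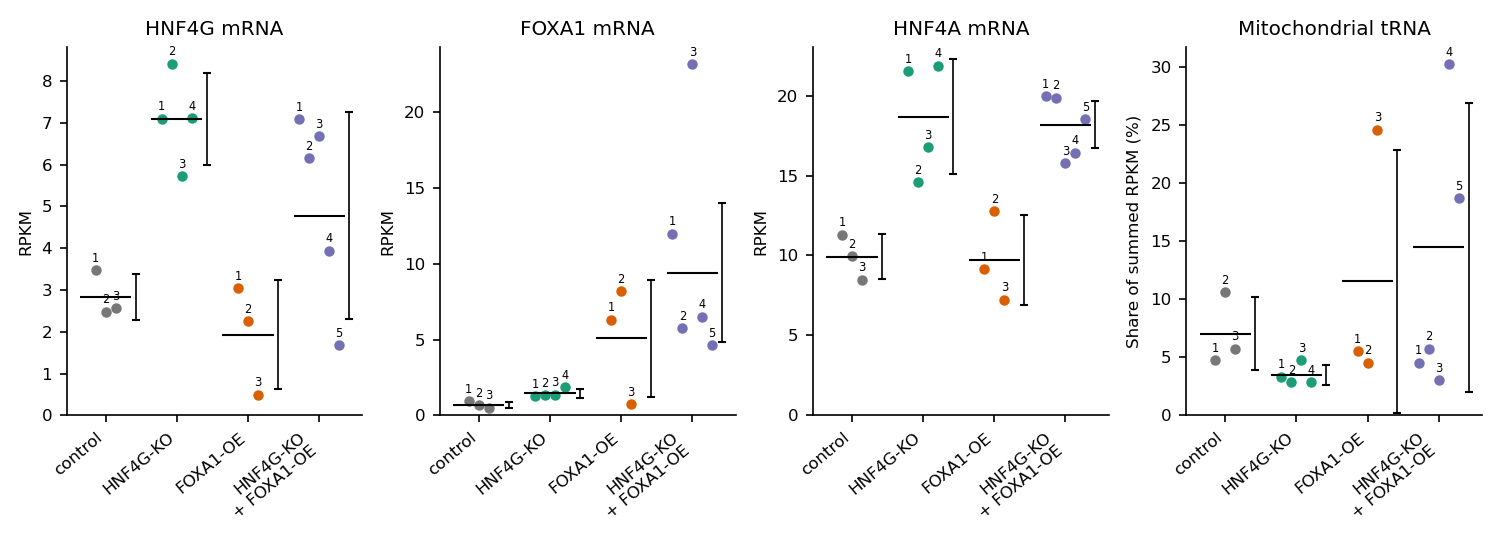
mRNA of HNF4G, FOXA1 and HNF4A in RPKM and the share of mitochondrial tRNA in the summed RPKM (%), with 1 point per tumor, numbered as in the text, a line at the mean over mice and a bar of 1 SD. HNF4G was not lower in the tumors labeled HNF4G-KO, FOXA1-OE tumor 3 lacked the FOXA1 level of the other FOXA1-OE tumors, and 3 tumors of both FOXA1-OE groups were high in mitochondrial tRNA.

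HNF4A (chromosome 20, 44355699 to 44432845) rose in tumors labeled HNF4G-KO + FOXA1-OE. It was at 9.13, 12.8 and 7.24 RPKM in FOXA1-OE tumors and at 20, 19.9, 15.8, 16.4 and 18.5 RPKM in HNF4G-KO + FOXA1-OE tumors, without overlap. Means were 9.72 ± 2.82 (SD, n = 3) and 18.2 ± 1.48 RPKM (SD, n = 4 mice), a log2 fold change of 0.87 (SE 0.19, adjusted p = 0.0151). The call was lost without FOXA1-OE tumor 1 (adjusted p = 0.0590) and held without tumor 3 (adjusted p = 0.0488). It was also lost in a fit of the 2 groups alone (adjusted p = 0.137). The two-sided exact permutation test over mice gave p = 0.0571, which no gene can go below with 35 splits of 7 mice.

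Across the transcriptome, 1122 of 14269 genes tested (7.86%) passed an adjusted p-value of 0.05. Of these, 474 genes (3.32% of those tested) were higher and 648 (4.54%) were lower in tumors labeled HNF4G-KO + FOXA1-OE. Changes of 1 or more on the log2 scale were reached by 473 of them (3.31%), with 247 higher and 226 lower. The mice of the groups did not overlap for 2085 genes (14.6%). Without adjustment, 3374 genes had a p-value under 0.05. The calls rested on the spread shared by the 4 groups of primary tumors in a single fit, and 86 genes (56 higher, 30 lower) were called from the 2 groups alone. Without FOXA1-OE tumor 1 there were 572 calls. Without FOXA1-OE tumor 3, the library with low FOXA1, there were 1059 calls, but 328 were higher and 731 lower. Without the 3 libraries rich in mitochondrial tRNA there were 1949 calls, and 883 of the 1122 genes kept their call. The direction was the same for all 1122 genes. In every one of 7 fits that left out a mouse, 450 genes (200 higher, 250 lower) passed.

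Among the transcription factors and cofactors that the study concerns, 4 of 27 genes tested rose, none fell and 23 did not pass, with a median log2 fold change of 0.37 against -0.03 over all genes tested. Of all genes tested, 3.32% were called higher and 4.54% lower, the shares to set beside this list and those below. Without FOXA1-OE tumor 3, 2 were higher and 1 was lower, with a median of 0.14, and without the 3 libraries rich in mitochondrial tRNA 8 were higher and 2 lower. All 14269 genes tested gave 328 higher and 731 lower in the former setting and 667 and 1282 in the latter. HNF4A, CDX2 and NCOA3 were among those that rose. CDX2, a master regulator of intestinal identity, was at 2.74, 3.72 and 2.20 RPKM in FOXA1-OE tumors and at 12.8, 9.06, 6.13, 3.98 and 6.88 RPKM in HNF4G-KO + FOXA1-OE tumors. All values of the latter group were higher, with tumor 4 close to FOXA1-OE tumor 2 (log2 fold change 1.10, SE 0.29, adjusted p = 0.0359). This call was lost without FOXA1-OE tumor 1 or 3 and without HNF4G-KO + FOXA1-OE tumor 1 or the mouse of tumors 2 and 3 (adjusted p = 0.0703 to 0.103). NCOA3, a coactivator of nuclear receptors, rose by 0.67 (adjusted p = 0.0261), a call lost without FOXA1-OE tumor 1 or 3 and without the mouse of tumors 2 and 3 or tumor 4 (adjusted p = 0.0623 to 0.0780). GATA6, a marker of the classical subtype, was at 6.16 ± 0.731 and 6.48 ± 0.704 RPKM (SD, n = 3 and 4 mice; log2 fold change 0.06, adjusted p = 0.833). The related factors FOXA2 and FOXA3 did not pass (log2 fold changes -0.36 and -0.09, adjusted p = 0.311 and 0.836), nor did the methyltransferase PRMT1 (-0.23, adjusted p = 0.372). MYC, which the study also names, differed by 0.99 (adjusted p = 0.285). TRIB1, which lies in a chromosome 8 region shown by the study, differed by 0.09 (adjusted p = 0.870) and the noncoding PVT1 by 0.23 (adjusted p = 0.527). The MYC difference was 0.15 without FOXA1-OE tumor 3, which was at 5.75 RPKM against 43.8 and 32.5 RPKM in tumors 1 and 2, and 0.78 without the 3 libraries rich in mitochondrial tRNA (adjusted p = 0.0318). GATA5 was below the filter.

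Genes of the intestinal brush border, the carpet of microvilli on absorptive cells, were among the largest rises. Of 19 members tested, 5 rose (MYO1A, CDH17, MYO7B, CDHR5 and TM4SF4), none fell and 14 did not pass. The share of all genes tested was 3.32% for rises and 4.54% for falls. The median log2 fold change was 0.61, and 18 of the 19 were above 0, as were 6756 of all 14269 genes tested. MYO1A (chromosome 12, 57028517 to 57051198), the motor protein that links microvillar actin to the membrane, was at 2.09, 3.64 and 2.73 RPKM in FOXA1-OE tumors. It was at 31.8, 28.1, 23.2, 34.3 and 36.7 RPKM in HNF4G-KO + FOXA1-OE tumors. No tumor came between the groups, and the spread within each was small. The log2 fold change was 3.12, with an SE of 0.25 from the spread shared by the 4 groups of the fit (adjusted p = 4.06e-05). CDH17, an intestinal cadherin, was at 14, 16.3 and 18.9 RPKM in FOXA1-OE tumors and at 200, 153, 129, 98.3 and 89.6 RPKM in HNF4G-KO + FOXA1-OE tumors (log2 fold change 2.87, SE 0.33, adjusted p = 0.000464). MYO7B and CDHR5, parts of the complex that joins microvillar tips, rose by 2.10 and 1.63 (adjusted p = 0.00225 and 0.00323). The calls of MYO1A, CDH17, MYO7B and CDHR5 held in all 7 fits without a mouse.

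The promoters of MYO1A and CDX2 are shown because these genes were among the gut genes that rose and hold a match to a motif searched. They are RefSeq windows of 250 bases before to 50 bases after the start site in GRCh38.p14, read on the strand of the gene. Capitals mark the match, which is the reverse complement of CAAAGTCCA, the HNF4 motif, in MYO1A (chr12:57050080-57050379, minus strand) and of TGTTTAC, a forkhead motif, in CDX2 (chr13:27969266-27969565, minus strand).
MYO1A: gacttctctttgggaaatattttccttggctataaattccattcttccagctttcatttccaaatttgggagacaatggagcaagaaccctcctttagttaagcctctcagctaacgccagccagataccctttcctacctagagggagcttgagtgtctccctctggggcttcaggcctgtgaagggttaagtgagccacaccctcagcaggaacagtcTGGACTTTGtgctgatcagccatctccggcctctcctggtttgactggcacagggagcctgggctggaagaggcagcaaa
CDX2: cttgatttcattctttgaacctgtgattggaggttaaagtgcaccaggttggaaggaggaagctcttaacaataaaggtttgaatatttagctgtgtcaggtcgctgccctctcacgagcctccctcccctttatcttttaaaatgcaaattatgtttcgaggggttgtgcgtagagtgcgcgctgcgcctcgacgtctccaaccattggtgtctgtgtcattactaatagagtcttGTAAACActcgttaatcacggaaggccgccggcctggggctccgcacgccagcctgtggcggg
The match in MYO1A begins 30 bases before the start site and that in CDX2 13 bases before it. The RefSeq start site used for MYO1A lies inside the gene span given above, whose 5' end on the minus strand is 57051198. On both strands, the HNF4 motif was found in promoters of 3 of 300 genes called higher that have an entry (1.0%), of 0 of 495 called lower and of 0.496% of the 9485 tested. The forkhead motif was found for 4.67% of the higher, 3.84% of the lower and 3.55% of the tested genes. The GATA motif AGATAA was found for 10.7%, 8.89% and 7.19%, respectively. No motif searched contains another, and the matches are descriptions of sequence and not binding sites.

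Genes of secreted and transport proteins gave further large changes in both directions. QPCT (chromosome 2, 37342827 to 37373322), which encodes the enzyme that cyclizes N-terminal glutamine of peptides, was at 1.28, 1.80 and 2.14 RPKM in FOXA1-OE tumors. It was at 77.9, 59.0, 49.6, 32.0 and 25.5 RPKM in HNF4G-KO + FOXA1-OE tumors. The groups were far apart in every tumor, with a log2 fold change of 4.02 (SE 0.30, adjusted p = 4.06e-05). RBP4 (chromosome 10, 93591687 to 93601744), the carrier of retinol in plasma, went from 2.48, 5.48 and 3.63 RPKM to 84.0, 40.7, 63.3, 30.3 and 44.8 RPKM (log2 fold change 3.41, SE 0.29, adjusted p = 4.96e-05). FABP1, the fatty acid binding protein of liver and gut, was at 0.0184 and 0.0475 RPKM in FOXA1-OE tumors 1 and 2 and at 1.74 RPKM in tumor 3. In HNF4G-KO + FOXA1-OE tumors it varied widely, at 39.3, 8.25, 2.44, 3.83 and 12 RPKM, and its rise of 2.93 (SE 0.62, adjusted p = 0.0115) was not called without FOXA1-OE tumor 1 (adjusted p = 0.0557). SERPINA1 (chromosome 14, 94376747 to 94390693), the secreted protease inhibitor alpha-1-antitrypsin, moved the other way. It was at 120, 90.3 and 152 RPKM in FOXA1-OE tumors and at 25.5, 16.9, 14.1, 37.5 and 16.1 RPKM in HNF4G-KO + FOXA1-OE tumors, a fall of 2.36 on the log2 scale (SE 0.27, adjusted p = 0.000436). RBP4, FABP1 and SERPINA1, but not QPCT, belong to a list of 30 liver-type secretory and apolipoprotein genes. Of this list 5 were above the filter, with 2 higher, 1 lower and 2 not called.

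**Figure D2:**
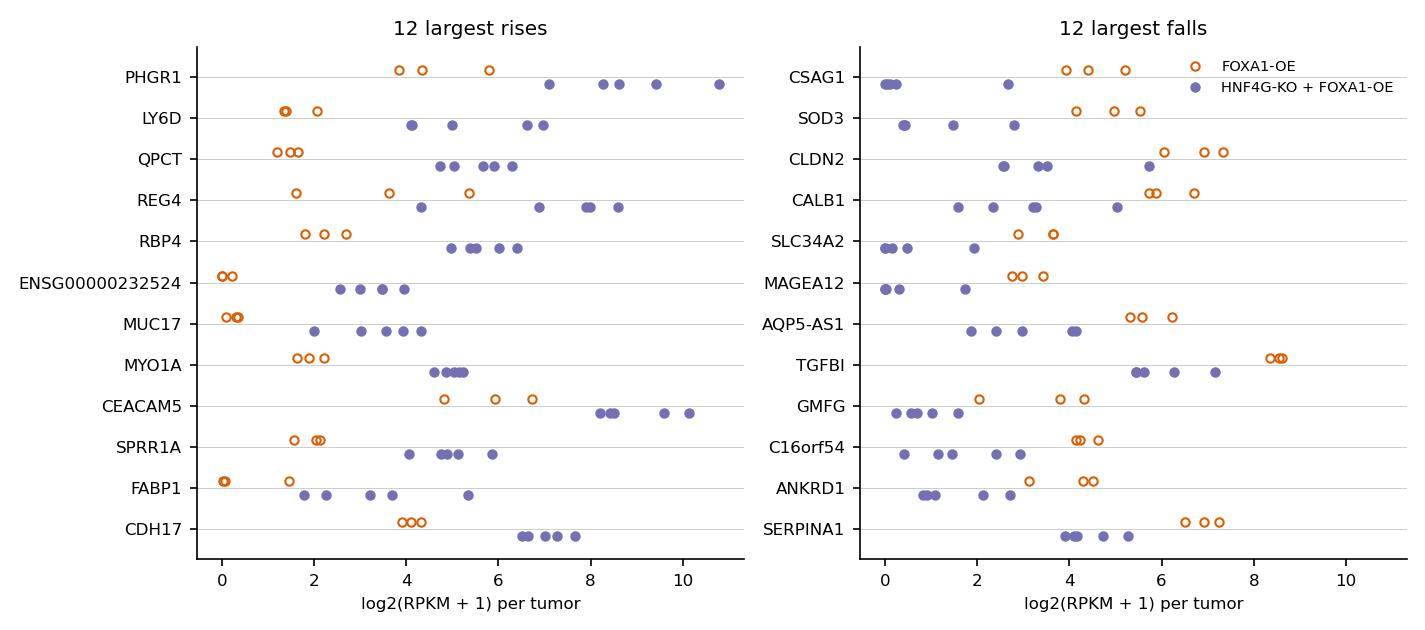
Level in log2(RPKM + 1) of the 12 genes of largest rise (left) and the 12 of largest fall (right), with 1 point per tumor, open for the 3 FOXA1-OE tumors and filled for the 5 HNF4G-KO + FOXA1-OE tumors. The genes were chosen among those called whose mice do not overlap, and HNF4G-KO + FOXA1-OE tumor 4 lay closest to the FOXA1-OE tumors for falls such as CSAG1 and CLDN2.

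Of 20 genes of the classical PDAC list tested, 9 rose and none fell, against 3.32% and 4.54% of all genes tested. The other 11 did not pass. All 20 log2 fold changes were above 0, with a median of 0.99. Besides MYO1A and CDH17, the genes that rose were REG4, VSIG2, CEACAM6, TSPAN8, CTSE, LGALS4 and ANXA10, with log2 fold changes of 1.15 to 3.85. VSIG2, an immunoglobulin-domain membrane protein, was at 0.732, 1.16 and 2.67 RPKM in FOXA1-OE tumors and at 25.8, 14.7, 6.27, 12 and 22.9 RPKM in HNF4G-KO + FOXA1-OE tumors (log2 fold change 2.85, SE 0.34, adjusted p = 0.000526). REG4, a secreted lectin of gut epithelium, ranged from 2.07 to 40.2 RPKM in FOXA1-OE tumors. It was at 388, 253, 18.9, 117 and 238 RPKM in HNF4G-KO + FOXA1-OE tumors, where tumor 3 was below FOXA1-OE tumor 3, and its call rested on single mice (log2 fold change 3.85, SE 1.09, adjusted p = 0.0456). It was lost without FOXA1-OE tumor 1 or 2 and without HNF4G-KO + FOXA1-OE tumor 1, 4 or 5 (adjusted p = 0.0657 to 0.176). TFF1, a gastric peptide of the list, did not pass (log2 fold change 2.35, adjusted p = 0.0559). Without FOXA1-OE tumor 3, 8 of the 20 were called higher and none lower, against 328 and 731 of all 14269 genes tested.

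CEACAM5 (chromosome 19, 41708585 to 41730433), the carcinoembryonic antigen, was at 59.7, 104 and 27.2 RPKM in FOXA1-OE tumors. It was at 771, 1130, 340, 362 and 293 RPKM in HNF4G-KO + FOXA1-OE tumors, the highest level in RPKM among the large rises along with PHGR1. The groups did not overlap, with a log2 fold change of 3.07 (SE 0.49, adjusted p = 0.00269). Its relative CEACAM6 rose by 1.93 (adjusted p = 0.00234), although short reads may be shared among CEACAM genes. PHGR1 (chromosome 15, 40351033 to 40356434), a gene known from gut epithelium, had the largest fold change. It was at 13.4, 19.3 and 54.8 RPKM in FOXA1-OE tumors and at 681, 305, 135, 392 and 1760 RPKM in HNF4G-KO + FOXA1-OE tumors (log2 fold change 4.46, SE 0.83, adjusted p = 0.00589). ENSG00000232524, a gene without a symbol on chromosome 7 (123456629 to 123459856), was listed at 0, 0.173 and 0 RPKM in FOXA1-OE tumors and at 4.96 to 14.5 RPKM in HNF4G-KO + FOXA1-OE tumors (log2 fold change 3.23, adjusted p = 8.45e-05).

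Mucins, the glycoproteins of the epithelial surface, were described with gastric secretory genes. Of 20 tested, 4 rose (MUC17, MUC3A, MUC4 and CTSE) and none fell, against 3.32% higher and 4.54% lower of all genes tested. MUC17, a membrane mucin of the gut, was at 0.0609, 0.276 and 0.233 RPKM in FOXA1-OE tumors and at 14.3, 19.1, 3.02, 10.9 and 7.13 RPKM in HNF4G-KO + FOXA1-OE tumors (log2 fold change 3.18, SE 0.32, adjusted p = 0.000170). MUC3A, its neighbor on chromosome 7 with a similar repeat structure, rose by 1.37 (adjusted p = 0.000931), and MUC4 by 1.02 (adjusted p = 0.00872). CTSE, cathepsin E, was called with a log2 fold change of 1.47 (adjusted p = 0.0457), but its mice overlapped and the call was lost without FOXA1-OE tumor 1 or 3 and without HNF4G-KO + FOXA1-OE tumor 1, 4 or 5 (adjusted p = 0.0610 to 0.171). CLDN18, a gastric claudin, was at 0.106 to 0.235 RPKM in FOXA1-OE tumors and at 2.89, 2.76, 0.108, 2.41 and 0.624 RPKM in HNF4G-KO + FOXA1-OE tumors, a difference of 1.15 that did not pass (adjusted p = 0.0541). Without the 3 libraries rich in mitochondrial tRNA, 4 genes of this list were higher and 4 lower. In that setting, 667 of all 14269 genes tested were higher and 1282 lower.

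Some squamous genes that are counted to the basal-like program rose as well. Of 21 members of the basal-like PDAC list tested, 7 were higher (LY6D, SPRR3, SPRR1B, KRT6A, DHRS9, KRT15 and UCA1), none was lower and 14 did not pass, with a median of 0.42. Over all genes tested, 3.32% were higher and 4.54% lower. LY6D (chromosome 8, 142784882 to 142786539), a membrane-anchored protein of stratified epithelium, was at 1.63, 1.54 and 3.18 RPKM in FOXA1-OE tumors. It was at 97.4, 16.4, 16.2, 30.9 and 124 RPKM in HNF4G-KO + FOXA1-OE tumors. The groups did not overlap, and tumors 1 and 5 stood highest (log2 fold change 4.07, SE 0.57, adjusted p = 0.00121). SPRR1A, a precursor of the cornified envelope outside the list, went from 3.12, 3.40 and 1.97 RPKM to 57.5, 33.9, 28.5, 15.6 and 26.2 RPKM (log2 fold change 3.01, SE 0.32, adjusted p = 0.000293). The related SPRR3 and SPRR1B rose by 2.46 and 1.80 (adjusted p = 0.00425 and 0.00918). For SPRR3, HNF4G-KO + FOXA1-OE tumor 3 at 11.4 RPKM was below FOXA1-OE tumor 3 at 15.3 RPKM, while the mice did not overlap. Of the 21 log2 fold changes, 15 were above 0. The lowest were those of S100A2 (-1.01, adjusted p = 0.0763) and CTSV (-0.80, adjusted p = 0.103), neither called. Without FOXA1-OE tumor 3, 6 members were higher and 1 was lower, against 328 and 731 of all 14269 genes tested. Without the 3 libraries rich in mitochondrial tRNA, 8 were higher and 3 lower, against 667 and 1282 of all genes tested. CTSV was called lower in both settings (adjusted p = 0.00384 and 0.00143).

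Genes of drug and xenobiotic metabolism, which also mark differentiated gut and liver cells, were called higher for 7 of 18 tested and lower for 1, with a median of 0.66. The shares over all genes tested were 3.32% higher and 4.54% lower. CYP2C18, a cytochrome P450, was at 2.12, 3.89 and 1.52 RPKM in FOXA1-OE tumors and at 22, 19.8, 11.9, 14.4 and 11.5 RPKM in HNF4G-KO + FOXA1-OE tumors (log2 fold change 2.28, SE 0.28, adjusted p = 0.000658). AKR1B10, an aldo-keto reductase, was at 8.52, 14.7 and 6.72 RPKM and at 66.5, 54.8, 61.7, 41.4 and 43.3 RPKM, respectively (log2 fold change 2.32, adjusted p = 0.00114). Both genes were separated by group in every tumor. ABCC2, an export pump for conjugated drugs, rose by 1.86 and CYP4F3 by 1.23 (adjusted p = 0.00190 and 0.00283). UGT2B15, ALDH3A1 and SULT2B1 were also higher, while ALDH1A3, which makes retinoic acid, fell by 1.22 (adjusted p = 0.0141). The counts were the same, 7 higher and 1 lower, without FOXA1-OE tumor 3 and without the 3 libraries rich in mitochondrial tRNA. All 14269 genes tested gave 328 higher and 731 lower in the former setting and 667 and 1282 in the latter.

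The largest fall was in CSAG1 (chromosome X, 152727484 to 152733735), a cancer-testis gene, that is, one normally silent outside the germline. It was at 20.1, 14.3 and 36.2 RPKM in FOXA1-OE tumors. It was at 0.0355, 0.0864, 0, 5.39 and 0.185 RPKM in HNF4G-KO + FOXA1-OE tumors, where tumor 4 stood apart from the others. It fell by 3.76 on the log2 scale (SE 0.51, adjusted p = 0.000970). The adjacent cancer-testis gene MAGEA12 (chromosome X, 152733757 to 152737669) went from 9.80, 6.90 and 5.76 RPKM to 0.02, 0, 0, 2.32 and 0.245 RPKM, again with tumor 4 highest (log2 fold change -2.54, SE 0.33, adjusted p = 0.000821). Both belong to families of near-identical copies among which reads may be split.

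Tumor 4 was also the highest of its group for several other falls. CLDN2 (chromosome X, 106900164 to 106930861), a claudin that forms cation pores in leaky tight junctions, was at 119, 161 and 65.8 RPKM in FOXA1-OE tumors and at 4.93, 9, 5.02, 52.2 and 10.4 RPKM in HNF4G-KO + FOXA1-OE tumors. The difference was -3.08 on the log2 scale (SE 0.57, adjusted p = 0.00538). It was the only one of 22 tight junction genes tested that was called, against 7.86% called of all genes tested. Without the 3 libraries rich in mitochondrial tRNA, 4 tight junction genes were lower and 0 higher, against 1282 and 667 of all 14269 genes tested. SOD3, the extracellular superoxide dismutase, was at 30.4, 16.8 and 45.3 RPKM in FOXA1-OE tumors and at 0.328, 0.355, 0.313, 5.93 and 1.78 RPKM in HNF4G-KO + FOXA1-OE tumors (log2 fold change -3.61, SE 0.47, adjusted p = 0.000846). The calcium-binding protein CALB1 (log2 fold change -2.85, adjusted p = 0.00657) and the phosphate transporter SLC34A2 (log2 fold change -2.78, adjusted p = 0.000897) were also called lower. CALB1 ranged from 52.4 to 104 RPKM in FOXA1-OE tumors and from 1.99 to 31.7 RPKM in HNF4G-KO + FOXA1-OE tumors. AQP5-AS1, GMFG and C16orf54 completed the 12 largest falls, with log2 fold changes of -2.51, -2.48 and -2.47, together with TGFBI, ANKRD1 and SERPINA1. The strand setting of the counting is not given in the sources used here, so reads of AQP5-AS1 and of AQP5 on the other strand may not be told apart. In the fit of the 2 groups alone, CLDN2, CALB1, AQP5-AS1, GMFG, C16orf54, ANKRD1, REG4 and FABP1 lost their calls among these 24 leading genes.

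Of the mesenchymal genes and regulators of epithelial-mesenchymal transition, 3 of 18 tested fell and none rose, with a median of 0.07. Among all genes tested, 4.54% were lower and 3.32% higher. Without FOXA1-OE tumor 3 the median of the list was -0.26, and without the 3 libraries rich in mitochondrial tRNA it was -0.33, with 2 members called higher and 3 lower. In the latter setting 667 of all 14269 genes tested were higher and 1282 lower. TGFBI (chromosome 5, 136028988 to 136063818), a matrix protein induced by TGF-beta, was at 372, 388 and 325 RPKM in FOXA1-OE tumors and at 42.8, 48.5, 76.2, 142 and 42.4 RPKM in HNF4G-KO + FOXA1-OE tumors. It fell by 2.50 (SE 0.33, adjusted p = 0.000897) from means of 361 ± 32.8 (SD, n = 3) to 72.3 ± 47.3 RPKM (SD, n = 4 mice). The receptor tyrosine kinase AXL was at 13.9, 7.47 and 12.5 RPKM and at 2.53, 2.20, 4.52, 5.74 and 3.88 RPKM, respectively (log2 fold change -1.35, adjusted p = 0.00386). The intermediate filament gene VIM differed by -1.08 (adjusted p = 0.00735), and its tumors overlapped, since HNF4G-KO + FOXA1-OE tumor 3 at 23.6 RPKM was above FOXA1-OE tumor 2 at 22.7 RPKM. ANKRD1, a target of the YAP coactivator, went from 18.8, 7.67 and 22 RPKM to 0.872, 0.763, 3.41, 5.59 and 1.12 RPKM (log2 fold change -2.43, adjusted p = 0.00696). The other 15 members of the list, SNAI1 among them (log2 fold change 0.51, adjusted p = 0.205), did not pass.

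Markers of host cells, since mouse RNA may be counted to human genes, were checked beside these falls. None of 10 stroma, 16 pancreas and 3 adipose genes tested was called, and medians were 0.13, -0.01 and 0.06. These medians moved with the libraries that stood apart, to -0.55, 0.79 and 0.33 without FOXA1-OE tumor 3 and to -0.62, 0.29 and -0.14 without the 3 libraries rich in mitochondrial tRNA, again with no gene called. The summed RPKM of all 23 stroma genes in the table was 39.7 to 198 in FOXA1-OE and 68.6 to 153 in HNF4G-KO + FOXA1-OE tumors, that of 22 pancreas genes 9.61 to 171 and 2.95 to 126, and that of 12 adipose genes 43.7 to 44.9 and 40.5 to 81.9. The endothelial genes PECAM1 and VWF and the adipocyte genes ADIPOQ, FABP4 and LEP were under 0.1 RPKM in every tumor of both groups. Of 3 blood cell genes tested, CD14 was lower (log2 fold change -1.41, adjusted p = 0.00411), and the summed RPKM of 16 genes was 79.9 to 604 and 155 to 679. The blood list shares LYZ with the classical PDAC list, and the stroma list shares ACTA2, TAGLN, SPARC and MMP2 with the mesenchymal list. These sums may therefore not measure host cells alone. HBA1 and S100A8 were under 0.1 RPKM in all, and the part of host cells in the results was not tested beyond a fit with the stroma level as a covariate, which called 1515 genes.

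Immune-related genes moved in both directions. Of 28 interferon response and antigen presentation genes, 3 rose, 1 fell and 24 did not pass, against 3.32% higher and 4.54% lower of all genes tested. The 3 that rose were the oligoadenylate synthetases OAS1, OAS2 and OAS3, which sense double-stranded RNA and lie side by side on chromosome 12. OAS3 was at 19.1, 42.5 and 16.4 RPKM in FOXA1-OE tumors and at 80.0, 97.2, 86.4, 52.2 and 47.2 RPKM in HNF4G-KO + FOXA1-OE tumors (log2 fold change 1.42, SE 0.30, adjusted p = 0.0122). OAS2 and OAS1 rose by 1.12 and 1.00 (adjusted p = 0.0157 and 0.0350), and the calls of OAS3 and OAS2 were lost without FOXA1-OE tumor 1 (adjusted p = 0.0616 and 0.0773). That of OAS1 was lost without any of the FOXA1-OE tumors and without HNF4G-KO + FOXA1-OE tumor 1 or the mouse of tumors 2 and 3 (adjusted p = 0.0580 to 0.0816). The guanylate-binding protein GBP2 fell by 1.26 (adjusted p = 0.0160, and 0.0503 without FOXA1-OE tumor 3). Of 20 chemokine, cytokine and NF-kB genes, CCL20, TNFSF15 and BIRC3 rose and CX3CL1 and IRAK3 fell, and the call of TNFSF15 was lost without FOXA1-OE tumor 3, HNF4G-KO + FOXA1-OE tumor 1 or the mouse of tumors 2 and 3 (adjusted p = 0.0560 to 0.0762). CX3CL1, a membrane-bound chemokine, was at 17.7, 15.0 and 11.6 RPKM in FOXA1-OE tumors and at 1.91, 1.23, 1.05, 5.46 and 1.66 RPKM in HNF4G-KO + FOXA1-OE tumors (log2 fold change -2.28, SE 0.30, adjusted p = 0.000846). CCL20, a chemokine that attracts CCR6-expressing cells, rose by 2.04 (adjusted p = 0.0128).

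In the remaining lists few genes or none were called, beside 7.86% called in either direction of all genes tested. Among 21 genes of extracellular proteases and invasion, the metalloproteinase MMP28 and the serpin SERPINB5 rose, the latter not called without FOXA1-OE tumor 3 or HNF4G-KO + FOXA1-OE tumor 1 (adjusted p = 0.0640 and 0.0585). MMP28 was at 0.717, 1.26 and 0.859 RPKM in FOXA1-OE tumors and at 11.6, 11.6, 1.67, 9.17 and 15.2 RPKM in HNF4G-KO + FOXA1-OE tumors (log2 fold change 2.44, SE 0.33, adjusted p = 0.000970). HEY1, a Notch target, was the only one called of 25 EGF, Notch and Wnt genes, at 3.05, 3.72 and 3.74 RPKM against 1.04, 1.00, 1.63, 1.51 and 0.937 RPKM (log2 fold change -1.04, adjusted p = 0.00536). Of 33 cell cycle genes, 0 passed in either direction, with a median of -0.03. The smallest of their p-values was that of CCNB1 (log2 fold change -0.57, adjusted p = 0.0561). None of 23 cholesterol and fatty acid synthesis genes passed. Of 26 glycolysis and hypoxia genes, GAPDH fell by 0.83 (adjusted p = 0.0333), 25 did not pass and 4 were above 0, with a median of -0.44. The call of GAPDH was lost without FOXA1-OE tumor 1 or 2 and without the mouse of tumors 2 and 3, tumor 4 or tumor 5 (adjusted p = 0.0506 to 0.137). The hypoxia marker CA9 ranged from 18.4 to 61.4 RPKM in FOXA1-OE tumors and from 1.27 to 22.2 RPKM in HNF4G-KO + FOXA1-OE tumors (log2 fold change -1.74, adjusted p = 0.0675). Of 25 epithelial adhesion genes, the protease inhibitor SPINT2 alone was called (log2 fold change -0.82, adjusted p = 0.0422), and it held only without FOXA1-OE tumor 3 and without HNF4G-KO + FOXA1-OE tumor 1 among the fits without a mouse. Without the 3 libraries rich in mitochondrial tRNA, more was called in some of these lists. In that setting, 3 EGF, Notch and Wnt genes were higher and 3 lower, and 5 epithelial adhesion genes were higher and 1 lower. Protease and invasion genes gave 3 higher and 1 lower, and cell cycle genes 0 in either direction. All 14269 genes tested gave 667 higher and 1282 lower.

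The same label contrast without FOXA1-OE, 4 HNF4G-KO against 3 control tumors, shares no tumor with the comparison above, although both use the same HNF4G-KO clones. Both contrasts also come from a single fit and share the spread of each gene, so genes of low spread are called more readily in both. There, 1736 genes (12.2%) were called. Of the 1122 genes called with FOXA1-OE, 519 were called in both contrasts, which is 46.3% of the former and 29.9% of the latter calls. Of these, 516 had the same direction, 269 higher and 247 lower. The sign of the log2 fold change was the same for 94.7% of the 1122 genes and for 72.9% of all genes tested, and the Pearson correlation across all genes, which are not independent replicates, was 0.61. Among the 24 leading genes, LY6D, REG4, FABP1 and C16orf54 were not called without FOXA1-OE. LY6D had a log2 fold change of 1.59 there (adjusted p = 0.0829), AKR1B10 of 0.64 (adjusted p = 0.196) and C16orf54 of -0.65 (adjusted p = 0.262). HNF4A differed by 0.84 without and by 0.87 with FOXA1-OE, and QPCT by 3.00 and 4.02.

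Whether the contrast differs with FOXA1-OE was tested as the difference between both contrasts, and a gene called in only one of them is not thereby shown to differ. The difference passed for 5 genes (0.035%), and 1209 had an unadjusted p-value under 0.05. These calls were not stable: 0 genes passed without FOXA1-OE tumor 1, without the mouse of tumors 2 and 3, or with a pseudocount of 0.1, 1 passed without FOXA1-OE tumor 2 and 2 passed without HNF4G-KO + FOXA1-OE tumor 1. The 5 were FAM81B, BST1, IRAK3, RPL31P34 and ADGRL3, all more negative with FOXA1-OE. FAM81B was at 5.20, 3.09 and 4.17 RPKM in FOXA1-OE tumors and at 0.956, 3.33, 0.688, 2.01 and 2.47 RPKM in HNF4G-KO + FOXA1-OE tumors. Its log2 fold change was -0.90 with FOXA1-OE and 1.32 without, a difference of -2.22 (adjusted p = 0.0419). The fall with FOXA1-OE was not called without FOXA1-OE tumor 1 (adjusted p = 0.0908). IRAK3, a brake on Toll-like receptor signaling, had log2 fold changes of -0.71 and 0.94, respectively, a difference of -1.65 (adjusted p = 0.0474). Its fall was not called without any of the FOXA1-OE tumors or without HNF4G-KO + FOXA1-OE tumor 1 (adjusted p = 0.0541 to 0.0717). For LY6D the difference was 2.48 (adjusted p = 0.437), for C16orf54 -1.82 (adjusted p = 0.401) and for MYO1A 1.15 (adjusted p = 0.42), none of which passed.

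**Figure D3:**
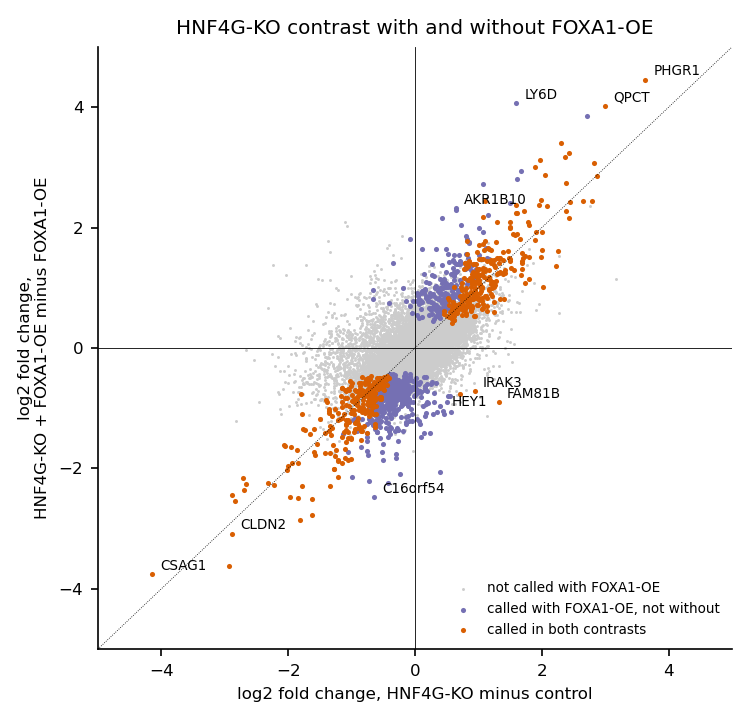
Log2 fold change of each gene tested between HNF4G-KO + FOXA1-OE and FOXA1-OE tumors (y axis) against that between HNF4G-KO and control tumors (x axis). Orange points are the 519 genes called in both contrasts, purple points the 603 called with FOXA1-OE and not without, and the dotted line marks equal fold changes.

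Tumors 2 and 3 labeled HNF4G-KO + FOXA1-OE grew in the same mouse, which allowed a look at differences within an animal. Over the genes tested, 3.72% differed by at least 1 on the log2 scale between them, against 4.32% to 22.6% for pairs of tumors of this group from separate mice. The 22.6% was that of tumor 5 against tumors 2 and 3. By the median size of the log2 difference, tumors 2 and 3 were not the closest pair, at 0.28 against 0.26 to 0.57 for separate mice. Among the genes described above, tumors 2 and 3 differed for MUC17 (19.1 and 3.02 RPKM), MMP28 (11.6 and 1.67 RPKM), CLDN18 (2.76 and 0.108 RPKM) and CTSE (121 and 6.45 RPKM). For each of these 4 genes, chosen after their values were seen, tumor 3 was the lowest of the group, and for CTSE it was below every FOXA1-OE tumor.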

How the data were processed

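RNA of xenograft tumors was sequenced by the authors as stranded mRNA libraries with short single-end reads. Per the labels' processing notes, the tools were STAR 2.6.1a and featureCounts 2.0.4, and DESeq2 was named. The methods name GRCh37 and the processing notes GRCh38. The authors deposited RPKM values per gene. Counts were not used here. Of 58719 gene IDs, 58250 were named and placed with GENCODE release 44 (GRCh38). The 14269 genes whose mean over primary tumors reached 1 RPKM were kept, transformed to log2(RPKM + 1) and fitted with limma 3.58.1 in R 4.3.3 (eBayes with a trend, Benjamini-Hochberg adjustment over all genes, threshold 0.05). A single fit held 14 mice of 4 groups (control 3, HNF4G-KO 4, FOXA1-OE 3, HNF4G-KO + FOXA1-OE 4). Tumors 2 and 3 of 1 mouse were averaged on the log2 scale in fits and as RPKM in means ± SD. On data simulated for this comparison with 14269 genes, of which 200 were changed by 1 on the log2 scale, 50% of the changed genes were called, and 5.66% of calls were unchanged genes. The simulation gave a gene the same spread in every mouse. In the real data, estimated sample weights ranged from 0.15 (FOXA1-OE tumor 3) to 3.31 (HNF4G-KO tumor 3). The simulated shares are therefore not error rates of the calls reported here. At least 99.8% of the low values of each library were whole multiples of a step.

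Single genes had a two-sided exact permutation test over mice, with the smaller tail doubled. The genes named are those the study names with TRIB1 and PVT1, the 12 largest changes in each direction among called genes whose mice did not overlap, up to 4 members of each list by p-value, and those called in the difference of contrasts. Other members were named where a count was given. Members and lists were chosen with earlier results of these data known. Lists were described by counts and medians, with no set test. A member of the transcription factor list is not reported here by name. Promoters were RefSeq windows, which 46 of 70 genes named by the rule have. Python 3.11.15 was used for summaries (pandas 2.3.3, numpy 2.4.6) and plots (matplotlib 3.10.9). There were 17 alternatives, and 4 more were added after the files were examined (mitochondrial tRNA as a covariate, the 3 libraries richest in it left out, tumor 2 or tumor 3 alone).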

Additional observations from a re-analysis of the deposited data

Results flagged for a closer look

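CSAG1 in HNF4G-KO + FOXA1-OE mice had 1 mouse far from the others, that of tumor 4 at 5.39 RPKM, with a gap of 0.926 of the whole range on the log2 scale. This was 1 of 37 genes so examined, and chance alone gives about 1 in 20. A further 5 genes differed in the HNF4G-KO contrast with FOXA1-OE and without it, by a test of the difference itself. The differences on the log2 scale were -2.22 for FAM81B, -1.77 for BST1, -1.65 for IRAK3, -1.64 for RPL31P34 and -1.58 for ADGRL3. BST1, a cell surface enzyme, had log2 fold changes of -0.52 (adjusted p = 0.102) with and 1.25 (adjusted p = 0.00221) without FOXA1-OE, and ADGRL3, an adhesion receptor, of -0.44 (adjusted p = 0.114) and 1.14 (adjusted p = 0.00171). RPL31P34 is a pseudogene of a ribosomal protein whose reads may come from other copies, with log2 fold changes of -1.41 (adjusted p = 0.000691) and 0.23 (adjusted p = 0.380).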

How the results depend on the processing

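Over fits that left out each mouse in turn, the calls numbered 572 (without FOXA1-OE tumor 1) to 1437 in all, 251 to 639 higher, 321 to 798 lower and 0 to 6 for the difference of contrasts. The fit of the 2 groups alone called 86 genes (56 higher, 30 lower) of 14396 tested and holds no difference of contrasts. In this fit, HNF4A, CDX2, NCOA3, CEACAM6, MUC4, CTSE, SPRR3, SPRR1B, DHRS9 and CYP4F3 lost their calls (adjusted p = 0.0642 to 0.24). AXL, VIM, SPINT2, SERPINB5, GAPDH, HEY1, CD14 and FAM81B lost theirs too (adjusted p = 0.0586 to 0.268). So did OAS1, OAS2, OAS3, GBP2, CCL20, TNFSF15 and IRAK3 (adjusted p = 0.06 to 0.202). MYO7B, CDHR5, VSIG2, MUC3A, MMP28, CYP2C18, AKR1B10, ABCC2, CX3CL1 and RPL31P34 kept theirs. Sample weights gave 1812 calls, with 1148 lower, and a log2 fold change of at least 1 left 473 (247 higher, 226 lower). Mitochondrial tRNA as a covariate gave 2118 (918 higher, 1200 lower), and leaving out the 3 libraries richest in it gave 1949, with 1282 lower. The difference of contrasts called 0 genes with a pseudocount of 0.1, samples shifted to the same median, tumors 2 and 3 as separate samples, the replicate block or tumor 2 alone. It called 2 without a filter, 8 with the mitochondrial tRNA covariate, 69 with sample weights and 112 without the 3 libraries, so these calls depend on the setting. Other settings left the counts within 1.5 times those reported. The cause was not tested.

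The tumor numbers did not pair the samples: deviations of the same numbers had correlations of 0.25, 0.50 and -0.53. Tumor number as a replicate block gave 2414 calls (948 higher, 1466 lower). Among the genes that the study names, taken with TRIB1 and PVT1, GATA6 and TRIB1 changed sign, neither called. GATA6 was at -0.04 without the 3 libraries, -0.01 with tumor 3 alone and -0.03 without FOXA1-OE tumor 3, and TRIB1 ranged from -0.08 to 0.35 without single mice. Among list members that were not called, ADIPOR2, LYZ, ACTA2, COL1A1, TAGLN, BGN, CSF1R and CFD also changed sign in at least 1 setting.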

Other observations

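By gene type, 10.9% of 1244 long noncoding RNA genes tested were called (55 higher, 81 lower), 8.29% of 11055 protein-coding genes (375 higher, 541 lower) and 2.92% of 1301 pseudogenes. Chromosome X held 6 genes called higher and 60 called lower of 458 tested, with a median log2 fold change of -0.26, and chromosome 17 held 44 higher and 12 lower of 878, with a median of 0.15. Over all genes tested, 3.32% were higher and 4.54% lower, with a median of -0.03. Chromosome 12 was divided: the median was -0.25 for the 125 genes of its first 20 Mb and 0.27 for the 131 genes between 100 and 120 Mb. Over 153 windows of 20 Mb with at least 20 genes, the medians of this contrast and of HNF4G-KO against control tumors, which shares no tumor with it but the same clones, had a Pearson correlation of 0.80, given as a description.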
